A study of Mus musculus with 8 samples.

Results

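Senescence and the brakes on the cell cycle that accompany it are known as barriers to reprogramming, and 9 genes of these pathways were described here: *Cdkn2a*, *Cdkn2b*, *Cdkn1a*, *Cdkn1b*, *Trp53*, *Mdm2*, *Ccnd1*, *Ccnd2* and *Ccne1*. They were chosen by name from 21911 protein-coding genes of the annotation, with earlier results of these data known, by a rule that used no measured value. The window of each gene was its body with 20 kb on either side, and the 9 windows together covered 451.4 kb. Of the 425777 peaks in the 8 peak lists of the series, 216 lay in these windows.

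The data were CUT&Tag, in which an antibody guides a transposase that tags nearby DNA for sequencing, from mouse embryonic fibroblasts (MEFs) at day 5 of reprogramming. Retroviral *Oct4* was given to all cells, with a second virus for wild-type *Nanog* (NanogWT, labelled Nanog+Oct4) or for *Nanog* joined to the BRG1-binding domain of SS18 (NanogBiD, labelled NanogN70+Oct4). Per the methods, the MEFs came from embryos of mice with an Oct4-GFP reporter (OG2) crossed to wild-type mice, and the paper was used to equate the N70 label with NanogBiD. The 4 targets were the FLAG tag on NANOG, BRG1 (encoded by *Smarca4*, the motor subunit of the BAF remodelling complex), H3K27ac, a mark of active promoters and enhancers, and H3K4me1, a mark of enhancers and of the flanks of promoters. Each target had 1 library per arm, in which replicates had been merged before peak calling, so there was no replicate error and no test between arms. The cells were a culture in transition, and a peak in more cells and a stronger peak per cell cannot be told apart.

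The *Cdkn2a* locus encodes p16 from its Ink4a start and p19 from its Arf start. With the neighbouring *Cdkn2b* product p15, p16 blocks the kinases CDK4 and CDK6, while p19 holds back MDM2, the ligase that marks p53 for destruction. *Cdkn1a* encodes p21, the best known target of p53 in cell cycle arrest, and *Cdkn1b* encodes p27, both of which restrain CDK2. The cyclins encoded by *Ccnd1* and *Ccnd2* activate CDK4 and CDK6, and cyclin E, from *Ccne1*, activates CDK2 at entry into DNA replication.

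Most BRG1 sites of the 9 windows were found in both arms, and the 7 sites found in 1 arm lay at *Cdkn2a*, *Mdm2* and the 3 cyclin genes. FLAG peaks numbered 23 in NanogWT and 28 in NanogBiD, and their ratio was 1.22 (0.676 to 2.21, a 95% interval for counting error only), beside 1.27 for the whole lists. BRG1 peaks numbered 24 and 27, a ratio of 1.125 (0.625 to 2.04), beside 1.74 for the whole lists, which lay inside that interval. There were 26 and 29 H3K27ac peaks, a ratio of 1.12 (0.634 to 1.97) beside 1.20. H3K4me1 had 32 and 27 peaks, a ratio of 0.844 (0.486 to 1.45) beside 0.791. Each of the 4 intervals included 1. When lists were cut to equal length (their top 20000 peaks by score), FLAG came to 1, BRG1 to 0.75, H3K27ac to 0.875 and H3K4me1 to 1.4, so the last 3 crossed 1. The cut itself sets the whole-list ratio near 1 for every target, in place of the values above. With scores of at least 100, H3K27ac (0.941) and H3K4me1 (1.08) crossed 1, and the whole-list ratios were not recomputed for that limit. The depth of the libraries is unknown and the lists were not scaled to it.

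When peaks of both arms were merged into regions, BRG1 was the target whose NanogBiD-only share lay farthest from that in its whole lists. For the NanogWT-only share this was H3K27ac (3.33% against 14.6%). Within 2 kb of starts it was also H3K27ac for the NanogBiD-only share (5.88% against 15.2%). Of 29 BRG1 regions, 22 were common to the arms, while 2 were particular to NanogWT and 5 to NanogBiD. The NanogBiD-only share was 17.2% (Wilson 95% interval 7.60 to 34.5), against 48.4% of all BRG1 regions, and the NanogWT-only share was 6.90% against 9.91%. Of the 29 regions, 19 lay within 2 kb of an annotated start, against 18069 of all 59402 BRG1 regions. There the NanogBiD-only share was 15.8% (5.52 to 37.6), against 23.7% of all BRG1 regions at starts. Away from starts it was 20% (5.67 to 51.0) of 10 regions, against 59.3%, and the part of this makeup in the overall share was not tested. The overall share of 17.2% was 5.88% with the 20000 highest-scoring peaks and 27.3% with windows of 100 bp either side of each summit. The whole-list share was not recomputed with these settings, so these 2 values have no match in the 48.4%.

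FLAG regions followed their lists more closely. Of 32 FLAG regions, 18 were shared, 4 were found in NanogWT only (15.8% of all FLAG regions were) and 10 in NanogBiD only, a share of 31.2% (17.95 to 48.6) against 33.7%. For H3K27ac, 25 of 30 regions were shared, 1 was found in NanogWT only (14.6% of all were) and 4 in NanogBiD only, a share of 13.3% (5.31 to 29.7) against 29.1%, which was 31.6% with summit windows, 26.5% with windows of 50 kb and 5.88% with the 20000 highest-scoring peaks. For H3K4me1, 21 of 36 were shared, 10 were found in NanogWT only (27.8%, against 34.8%) and 5 in NanogBiD only (13.9%, against 17.3%). That NanogBiD-only share was 31.9% with summit windows, 41.2% in lists cut to 20000 peaks, 27.8% with scores of at least 100 and 23.1% with heights of at least 15 tags. The whole-list shares of both marks were not recomputed with summit windows, cut lists or limits on score or height, which change them too.

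**Figure D1:**
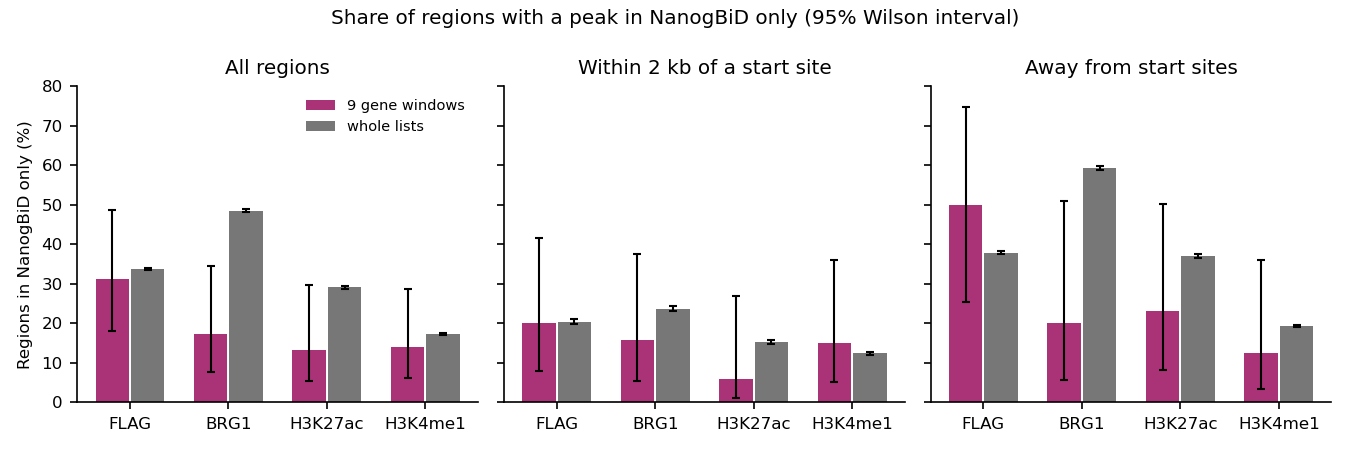
Share of regions with a peak in NanogBiD only (%), for each target, in the 9 gene windows (purple) and in the whole lists (grey). The panels show all regions, regions within 2 kb of an annotated start site and regions away from starts, with bars for the 95% Wilson interval, which covers counting error only. For BRG1 the share was 17.2% in the gene windows and 48.4% in the whole lists.

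Peaks of all 8 lists were also merged together, which gave 43 regions in the windows, of 123412 in the series. FLAG and BRG1 were both present in both arms at 17 of the 43 (39.5%), against 17.9% of all regions. At 11 of the 43 (25.6%) every list had a peak, against 12.0% of all regions, and of these 11, 5 lay at a start of the 9 genes, 4 at the start of another gene and 2, both in the *Ccne1* window, away from any annotated start. The class with FLAG in both arms and BRG1 in NanogBiD only, 11.5% of all regions, was found at 0 of 43, which allows a share of up to 6.98%, and so was FLAG in NanogWT only without BRG1, 8.41% of all regions. FLAG in NanogBiD only with BRG1 in both arms was found at 3 (6.98%), in *Cdkn1a* and *Ccnd2*, against 1.02% of all regions. FLAG and BRG1 were both confined to NanogBiD at 3 regions, in *Cdkn2a*, *Ccnd1* and *Ccnd2*, and both confined to NanogWT at 1, in *Ccne1*, which were 8.31% and 1.13% of all regions. With merging across gaps of up to 500 bp the 3 became 2, since the *Ccnd1* region joined its neighbour at the start, and the 1 in *Ccne1* stayed.

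The sequences at the FLAG summits of these 4 regions are given below, followed by the shared region with the largest FLAG increase, upstream of *Mdm2*. The last 3 were added after matches had been searched, as the remaining summits with an octamer (FLAG) or a p53 site (BRG1). Each is the plus strand of the mm10 genome (RefSeq GRCm38.p6), from 50 bp before to 50 bp after the summit. Capitals mark matches, on either strand, to the consensus of AP-1 (TGAGTCA), OCT4 (the octamer ATGCAAAT), SOX (ACAATGG or ACAAAGG), TEAD (GGAATG), the NANOG homeobox core (TAATGG), E2F (TTTCCCGC or TTTGGCGC) or the p53 full site, for which both core tetramers had to be intact with at most 2 other mismatches. None of the 9 matches marked overlapped another.
Cdkn2a, downstream, NanogBiD FLAG summit, chr4:89274116-89274216: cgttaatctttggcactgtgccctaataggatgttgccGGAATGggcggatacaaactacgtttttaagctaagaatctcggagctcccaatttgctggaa
Ccnd1, upstream, NanogBiD FLAG summit, chr7:144941585-144941685: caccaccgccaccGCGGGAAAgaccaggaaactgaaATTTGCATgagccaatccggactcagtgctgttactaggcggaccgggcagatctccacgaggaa
Ccnd2, intron, NanogBiD FLAG summit, chr6:127132996-127133096: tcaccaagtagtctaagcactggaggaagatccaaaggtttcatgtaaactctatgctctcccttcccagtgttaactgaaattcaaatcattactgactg
Ccne1, upstream, NanogWT FLAG summit, chr7:38125887-38125987: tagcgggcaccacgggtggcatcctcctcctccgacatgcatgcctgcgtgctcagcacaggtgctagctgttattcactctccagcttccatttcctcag
Mdm2, upstream, NanogBiD FLAG summit, chr10:117721583-117721683: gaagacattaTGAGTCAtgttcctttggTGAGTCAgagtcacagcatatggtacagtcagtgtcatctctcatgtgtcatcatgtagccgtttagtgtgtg
Mdm2, in a Cpm intron, NanogWT FLAG summit, chr10:117676322-117676422: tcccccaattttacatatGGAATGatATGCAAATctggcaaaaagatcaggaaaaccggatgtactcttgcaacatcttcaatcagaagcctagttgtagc
Ccnd2, at the start, NanogWT FLAG summit, chr6:127152551-127152651: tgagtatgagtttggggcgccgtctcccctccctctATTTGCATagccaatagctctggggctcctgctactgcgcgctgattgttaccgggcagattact
Cdkn1a, upstream at Trp53cor1, NanogBiD BRG1 summit, chr17:29078988-29079088: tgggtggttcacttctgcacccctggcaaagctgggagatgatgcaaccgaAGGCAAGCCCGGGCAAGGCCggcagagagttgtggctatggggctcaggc

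The *Ccnd1* site found in NanogBiD only held an octamer and an E2F match. An octamer was also found beside the NanogWT FLAG summit at the start of *Ccnd2*, and not beside the NanogBiD FLAG summit there, although it lay beside the NanogBiD BRG1 summit. The 2 AP-1 matches upstream of *Mdm2* began 18 bp apart. The *Cdkn2a* site held a TEAD match, and the sites in *Ccnd2* and *Ccne1* that were found in 1 arm held none of the 7 motifs in these stretches. Over all FLAG summits of the windows, AP-1 was matched at 0 of 23 in NanogWT, which allows up to 13.0%, and at 2 of 28 in NanogBiD (7.14%), against 5.82% and 7.68% of the summits of the whole lists. Both NanogBiD summits with AP-1 lay in regions shared by the arms. The NanogWT summits there were 0.085 and 0.113 kb away, beyond the 50 bp searched. The octamer was matched at 2 of 23 and 1 of 28, against 1.81% and 2.49%. TEAD was matched at 3 of 23 and 2 of 28, against 7.40% and 6.75%. SOX and the NANOG core were matched at 0 of 23 and 0 of 28, which allows up to 13.0% and 10.7%, where the whole lists had 4.14% and 4.81% for SOX and 4.99% and 7.32% for the NANOG core. E2F was matched at 0 of 23 and 1 of 28, against 0.209% and 0.201%. The p53 full site was matched at 0 of 24 BRG1 summits in NanogWT, which allows up to 12.5%, and 1 of 27 in NanogBiD, against 0.0746% and 0.0726%, and at 0 of the FLAG summits of the windows. That NanogBiD summit also lay in a shared region, with the NanogWT BRG1 summit 0.078 kb away. Median GC content at the FLAG summits of the windows was 55.4% and 57.4%, against 45.5% and 43.6% in the whole lists.

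Every one of the 9 genes had FLAG, BRG1 and H3K27ac peaks within 2 kb of a start in both arms, as did 45.7% of all protein-coding genes. Heights are those of the highest peak that reached within 2 kb of any annotated start, so the values of the arms can come from different positions, and 1 of 67 such summits lay farther out (H3K4me1 at *Ccnd1* in NanogWT, 3.465 kb upstream). The highest FLAG summit was 13 tags in NanogWT (at the Arf start) and 21 in NanogBiD (at the Ink4a start) for *Cdkn2a*, 24 and 25 for *Cdkn2b*, and 23 and 33 for *Cdkn1a*. It was 30 and 29 for *Cdkn1b*, 20 and 19 for *Trp53*, and 24 and 25 for *Mdm2*. It was 19 and 17 for *Ccnd1*, 23 and 41 for *Ccnd2*, and 21 and 28 for *Ccne1*. FLAG was thus higher in NanogBiD at 6 of 9 starts, against 58.1% of all genes with a FLAG peak there in both arms, and by this measure *Ccnd2* and *Cdkn1a* had the widest gaps in tags.

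The highest BRG1 summit was 14 and 19 tags for *Cdkn2a*, 28 and 24 for *Cdkn2b*, 31 and 25 for *Cdkn1a*, and 27 and 29 for *Cdkn1b*. It was 20 and 25 for *Trp53*, 20 and 22 for *Mdm2*, 24 and 19 for *Ccnd1*, 16 and 29 for *Ccnd2*, and 23 and 25 for *Ccne1*. It was higher in NanogBiD at 6 of 9 starts, against 43.5% of all genes with a BRG1 peak there in both arms, and lower at *Cdkn2b*, *Cdkn1a* and *Ccnd1*. FLAG and BRG1 differed in opposite directions at *Cdkn2b*, *Cdkn1a*, *Cdkn1b* and *Trp53*, as at 38.2% of all genes with both in both arms, and the FLAG difference was 1 tag at all of these but *Cdkn1a*. At *Trp53* the FLAG summits of 20 and 19 tags lay 2.06 kb apart, and at the NanogBiD position NanogWT had a summit of 18, so the FLAG direction there turned with the position taken. H3K27ac lay between 20 and 45 tags at all 9 starts in both arms and was highest at *Trp53* in NanogWT (42) and at *Mdm2* in NanogBiD (45). H3K4me1 was called at the start in both arms for *Cdkn2a*, *Cdkn2b*, *Ccnd1*, *Ccnd2* and *Ccne1*, in NanogBiD only for *Cdkn1b* (12 tags) and *Trp53* (15), in NanogWT only for *Mdm2* (12), and in neither arm for *Cdkn1a*.

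**Figure D2:**
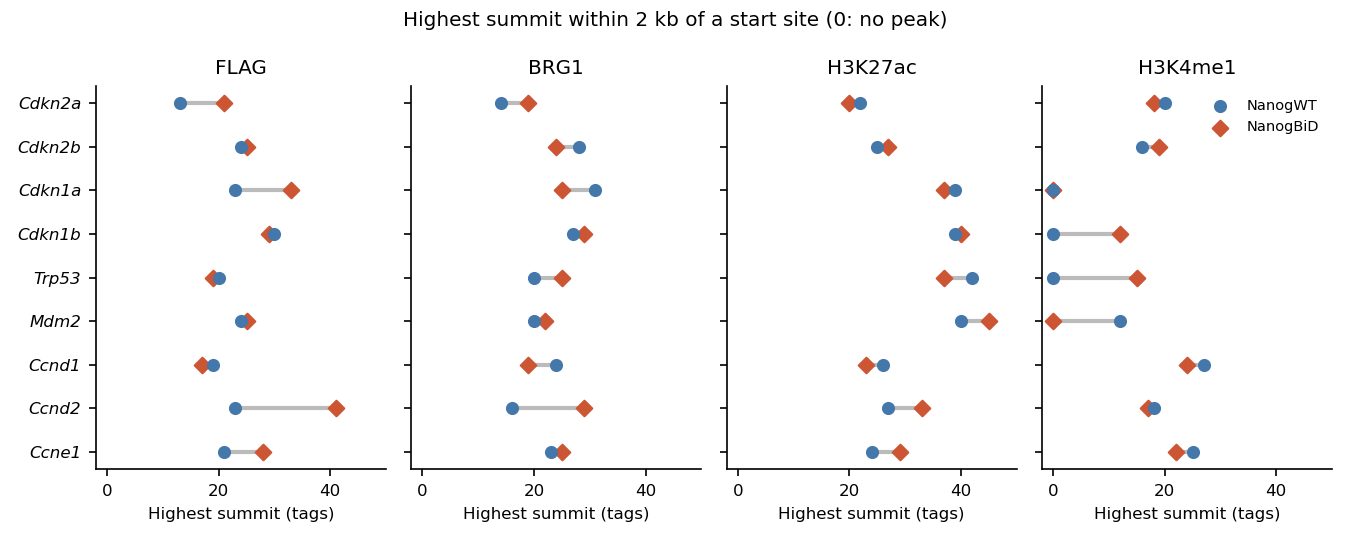
Highest summit height, in tags, of the peaks that reach within 2 kb of any annotated start of each gene, in NanogWT (blue circles) and NanogBiD (red diamonds), for the 4 targets; 0 means that no peak was called, and each point is 1 merged library. At Ccnd2 both FLAG (23 and 41 tags) and BRG1 (16 and 29) were higher in NanogBiD, while at Cdkn1a FLAG was 23 and 33 and BRG1 31 and 25.

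At regions shared by both arms, the summit was higher in NanogBiD at 12 of 18 FLAG regions (66.7%, interval 43.7 to 83.7), against 58.6% of all shared FLAG regions. It was higher at 12 of 22 BRG1 regions, against 57.5%, and at 16 of 25 H3K27ac regions (64.0%), against 54.7%. It was higher at 6 of 21 H3K4me1 regions (28.6%, 13.8 to 49.96), against 23.8%. The share in the windows was 11.1% with scores of at least 100, 14.3% in lists cut to 20000 peaks and 18.2% with heights of at least 15 tags. The whole-list share was not recomputed with these limits. When heights were divided by the median of their list at shared regions, the FLAG share became 50%, the BRG1 share 36.4%, the H3K27ac share 36% and the H3K4me1 share 76.2%. Over all shared regions the same scaling gave 48.2%, 44.1%, 40.3% and 61.3% for the targets in that order, so directions turned with it in the whole lists too.

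Differences of at least 1.5-fold were few. FLAG was at least 1.5-fold higher in NanogBiD at 3 of 18 shared regions, against 22.0% of all, and as much lower at 0, against 8.45%. For BRG1 the numbers were 2 of 22 higher (20.5% of all) and 1 lower (4.53%). For H3K27ac they were 2 of 25 higher (9.59%) and 0 lower (4.01%), and for H3K4me1 1 of 21 higher (1.06%) and 2 lower (11.7%). The counting interval of the height ratio left out 1 at 2 FLAG regions, upstream of *Mdm2* and at the start of *Ccnd2*, where 8.41% of all shared FLAG regions did so. It left out 1 at 0 BRG1, H3K27ac and H3K4me1 regions of the windows, against 5.28%, 1.07% and 0.301% of all.

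**Figure D3:**
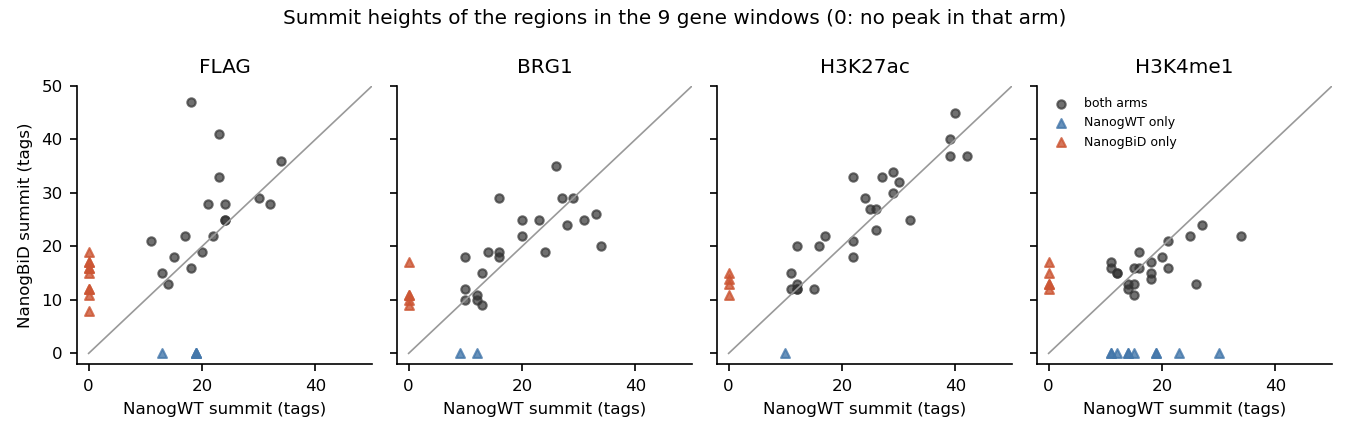
Summit height, in tags, of each region in the 9 gene windows in NanogWT (horizontal) and NanogBiD (vertical), for the 4 targets; black circles have a peak in both arms, triangles in 1 arm (drawn at 0 for the other), and the line marks equal heights. The FLAG point farthest above the line, at 18 and 47 tags, lies upstream of Mdm2, and 10 H3K4me1 regions sit on the horizontal axis as NanogWT only.

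The Ink4 locus held 2 sites where FLAG and H3K27ac were found in NanogBiD only, of 43 regions in all 9 windows, where 3.04% of all regions were of this kind. With scores of at least 100 the site between *Cdkn2a* and *Cdkn2b* was lost (92.8 for FLAG and 90.8 for H3K27ac). The Ink4a start had higher FLAG, BRG1 and H3K27ac summits in NanogBiD. *Cdkn2a* (chr4:89274471-89294653) had in its window 3 FLAG peaks in NanogWT and 5 in NanogBiD, 3 and 4 BRG1 peaks, 3 and 5 H3K27ac peaks, and 7 and 6 H3K4me1 peaks. The H3K4me1 order turned to 2 and 5 with scores of at least 100 and in lists cut to 20000 peaks, and to 3 and 6 with heights of at least 15 tags. *Cdkn2b* lies next to it, and their windows share peaks. At the Ink4a start, FLAG was 11 and 21 tags, a ratio of 1.91 (counting interval 0.880 to 4.38). BRG1 was 14 and 19, a ratio of 1.36 (0.645 to 2.93), and H3K27ac 12 and 20, a ratio of 1.67 (0.776 to 3.74), while H3K4me1 was 20 and 18. Each of these intervals includes 1. The H3K27ac difference, 0.74 on the log2 scale, was the largest increase of that mark in the 9 windows, and 4.76% of all shared H3K27ac regions had one as large. The region was picked as the largest of 25, so that share is no test.

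The Arf start did not show that pattern. There FLAG was 13 and 15 tags, BRG1 13 and 9, and H3K27ac 22 and 18. The H3K4me1 peak 0.977 kb upstream of it was 11 and 17 tags, the largest H3K4me1 increase in the windows, and 0.648% of all shared regions of that mark had one as large. At the *Cdkn2b* start FLAG was 24 and 25 tags, BRG1 28 and 24, H3K27ac 25 and 27, and H3K4me1 16 and 19.

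Further sites of the locus were called in NanogBiD. Downstream of *Cdkn2a*, beside the start of the transcript Gm12606 and 8.03 kb past the Ink4a start, FLAG (17 tags), BRG1 (11) and H3K27ac (13) were found in NanogBiD only, where H3K4me1 was present in both arms (15 and 16). That is the site with the TEAD match. Between the 2 genes, 7.42 kb past the *Cdkn2b* start, FLAG (11) and H3K27ac (15) were found in NanogBiD only, with H3K4me1 at 11 and 16 tags and no BRG1 peak in either arm. H3K4me1 was higher in NanogBiD at 5 of the 6 shared regions of the locus, including all 4 from the Arf start to the *Cdkn2b* start, where 23.8% of all shared regions of that mark were.

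At *Cdkn1a* (chr17:29090976-29100727), the FLAG summit lay beside an annotated start inside the gene, 2.635 kb past its 5′ end. FLAG and BRG1 there differed in direction, with FLAG at 23 and 33 tags, a ratio of 1.43 (0.817 to 2.56), and BRG1 at 31 and 25, a ratio of 0.806 (0.457 to 1.41). H3K27ac was 39 and 37. Upstream lay *Trp53cor1*, which encodes the p53-induced long noncoding RNA lincRNA-p21. A region over it, 11.9 kb upstream of *Cdkn1a*, had BRG1 at 16 and 18 tags, H3K27ac at 29 and 34, H3K4me1 at 19 in NanogWT only, and no FLAG peak in either arm. It held the p53 full site, from 1 to 20 bp past the NanogBiD BRG1 summit. In the next region, 9.50 kb upstream, FLAG was found in NanogBiD only (16 tags) where BRG1 was present in both arms (13 and 15).

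At *Cdkn1b* (chr6:134920401-134925513), the start differed by at most 2 tags in FLAG, BRG1 and H3K27ac. It had FLAG at 30 and 29 tags, BRG1 at 27 and 29 and H3K27ac at 39 and 40. A region 8.33 kb past the start, at the starts of the noncoding transcripts *Lockd* and Gm44238, had FLAG at 32 and 28, the largest FLAG decrease among shared regions (-0.19 on the log2 scale), BRG1 at 29 in both arms, and H3K27ac at 30 and 32. A FLAG peak of 8 tags in an intron of *Lockd* was found in NanogBiD only and stood 98.1% of the way down its list by score.

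At *Trp53* (chr11:69580359-69591873), the start, shared with the divergent gene *Wrap53*, had FLAG at 20 and 19 tags, BRG1 at 20 and 25, and H3K27ac at 42 and 37. The window held 1 BRG1 peak in each arm, the fewest of the 9 genes. Of the 4 FLAG peaks in NanogBiD, 2 had no partner in NanogWT. A peak of 19 tags lay in an intron of *Trp53* with no other target there, and 1 of 15 tags lay at the start of *Atp1b2*, where H3K4me1 was 12 and 15.

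*Mdm2* (chr10:117688875-117710758) carried the largest FLAG difference of the set. In a region 10.9 kb upstream of its start, FLAG was 18 tags in NanogWT against 47 in NanogBiD, which is a ratio of 2.61 (1.49 to 4.78), and 2.09% of all shared FLAG regions had an increase as large. BRG1 there was 26 and 35 tags, a ratio of 1.35 (0.787 to 2.33), and H3K27ac 22 and 33, a ratio of 1.5 (0.849 to 2.70). H3K4me1 was called at 30 tags in NanogWT and not in NanogBiD. This is the region with the pair of AP-1 matches. At the start itself FLAG was 24 and 25, BRG1 20 and 22, and H3K27ac 40 and 45. Between these, 6.97 kb upstream, H3K27ac was 32 and 25, the largest decrease of that mark among shared regions of the windows.

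Over the whole *Mdm2* window H3K4me1 was called at 7 peaks in NanogWT and 3 in NanogBiD. Of these, 5 regions were found in NanogWT only, with heights of 11 to 30 tags, and 1 in NanogBiD only. In lists cut to 20000 peaks the H3K4me1 counts were 0 and 1. FLAG peaks were 5 and 4 (8 and 10 with windows of 50 kb), and BRG1 peaks 5 and 4. The octamer match in an intron of *Cpm*, the neighbouring gene, lay under a FLAG peak of 22 tags in both arms.

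**Figure D4:**
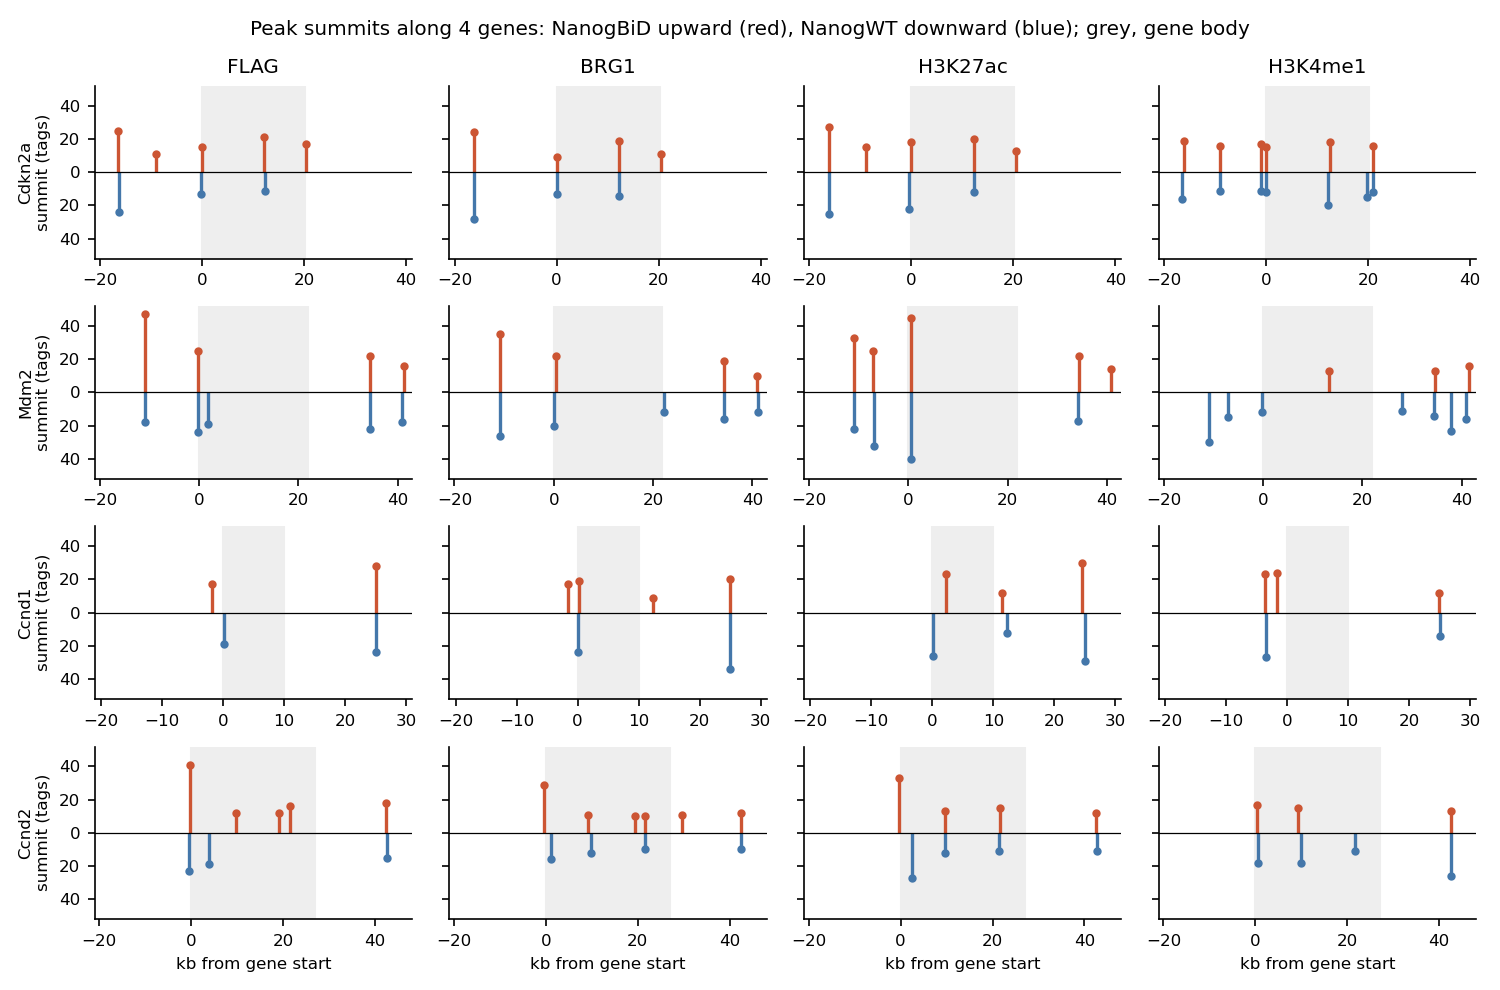
Summits of each target along Cdkn2a, Mdm2, Ccnd1 and Ccnd2, with distance from the gene's 5′ end in kb (horizontal, in the direction of transcription; grey, gene body) and summit height in tags (vertical; NanogBiD upward in red, NanogWT downward in blue). The FLAG summit upstream of Mdm2 is 47 tags in NanogBiD and 18 in NanogWT, and the H3K4me1 summit of 30 tags there has no partner in NanogBiD.

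Among the cyclins, *Ccnd1* (chr7:144929931-144939925) had 1 FLAG peak near its start in each arm, and these did not overlap. In NanogWT a FLAG peak of 19 tags lay 0.114 kb past the start. In NanogBiD that peak was not called and 1 of 17 tags lay 1.71 kb upstream, where BRG1 (17 tags) was also found in NanogBiD only. The scores upstream were low, at 70.9 for FLAG and 54.9 for BRG1, and with merging across gaps of up to 500 bp both peaks joined the region at the start, so that neither was in NanogBiD only. This is the site with the octamer and E2F matches. H3K4me1 was present there in both arms (27 and 24 tags, with summits 1.76 kb apart), and BRG1 at the start was 24 and 19. The largest BRG1 decrease of the 9 windows was about 25.1 kb past the start, beside *LTO1*, at 34 and 20 tags, a ratio of 0.588 (0.321 to 1.05), and 1.58% of all shared BRG1 regions had one as large. FLAG there was 24 and 28.

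*Ccnd2* (chr6:127125162-127152193) had the largest BRG1 increase of the windows by highest summit. It was narrowly above the ratio of 1.8 in the region 4.64 kb upstream of *Ccne1*, where the BRG1 summits lay 0.126 kb apart. At its start FLAG was 23 and 41 tags, a ratio of 1.78 (1.04 to 3.11), BRG1 16 and 29, a ratio of 1.81 (0.952 to 3.57), and H3K27ac 27 and 33. The summits of the arms lay 1.57 kb apart for BRG1 and 2.98 kb apart for H3K27ac, so these ratios compare different positions within 1 region. FLAG peaks in the window numbered 3 and 5, and BRG1 peaks 4 and 6, which turned to 2 and 0 in lists cut to 20000 peaks. In its introns FLAG was called in NanogBiD only at 3 regions, with heights of 16, 12 and 12 tags, and elsewhere in the gene body, 3.904 kb past the start, 1 region was found in NanogWT only, with 19 tags. With heights of at least 15 tags FLAG had 3 peaks in each arm. Among the 3 NanogBiD-only regions, BRG1 was present in both arms at 2 and in NanogBiD only (10 tags) at the third, which had neither histone mark. At the start of *Tigar*, 42.5 kb past the *Ccnd2* start, H3K4me1 was 26 and 13 tags, the largest decrease of that mark in the windows, and 0.858% of all shared regions of it had one as large.

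At *Ccne1* (chr7:38097984-38107534), the start had FLAG at 21 and 28 tags, BRG1 at 23 and 25 and H3K27ac at 24 and 29. The region 4.64 kb upstream was higher in NanogBiD for 3 targets, with FLAG at 17 and 22, BRG1 at 10 and 18 and H3K27ac at 16 and 20, while H3K4me1 was 21 in both arms. The distal region 18.4 kb upstream was the only one with FLAG (13 tags) and BRG1 (9) in NanogWT alone, and its H3K4me1 peak (19 tags) was also called in NanogWT only, while H3K27ac was 15 and 12. The score of its BRG1 peak was low, at 52.6, and that peak was lost with scores of at least 100. A region 22.5 kb past the start had all 4 targets in both arms, with H3K4me1 at 34 and 22 tags, and its NanogWT H3K4me1 peak stood in the top 0.00831% of its list by score.

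Counted per gene, FLAG peaks were more numerous in NanogBiD at 6 of 9 genes and fewer at 2 (*Mdm2* and *Ccne1*), where 40.9% of all protein-coding genes had more and 14.4% fewer. BRG1 was more numerous at 3 (*Cdkn2a*, *Ccnd1* and *Ccnd2*) and fewer at 2, against 42.1% and 10%. H3K27ac was more numerous at 3 (*Cdkn2a*, *Cdkn2b* and *Mdm2*) and fewer at 0, against 29.1% and 13.5%. The windows of *Cdkn2a* and *Cdkn2b* overlap, so the NanogBiD-only FLAG and H3K27ac peaks between these genes were counted for both. H3K4me1 was more numerous at 3 (*Cdkn1b*, *Trp53* and *Ccnd1*) and fewer at 5, against 16.3% and 42.5%. In lists cut to 20000 peaks the balance turned, with FLAG more numerous at 2 and fewer at 3, BRG1 at 0 and 3, H3K27ac at 1 and 3, and H3K4me1 at 3 and 0. Those 3 were *Cdkn2a*, *Cdkn2b* and *Mdm2*, while *Cdkn1b*, *Trp53* and *Ccnd1* then had equal H3K4me1 numbers in the arms. The shares over all genes were not recomputed for the cut lists. The median difference in the full lists was 1 peak for FLAG, 0 for BRG1 and H3K27ac and -1 for H3K4me1, against 0 over all genes for each target. All 9 genes had peaks of every target, whereas the background counts genes with no peak too.

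Of 52 other genes of these pathways, in 7 lists, FLAG peaks were more numerous in NanogBiD at 30 and fewer at 6, and BRG1 peaks at 26 and 7, with median differences of 1 and 0.5. All 52 had peaks of every target, and among all genes with a peak of the target 50.2% had more FLAG peaks and 17.7% fewer, and 53.2% had more BRG1 peaks and 12.7% fewer. Of the 7 lists, the 12 p53 target genes, chosen for mention after the values were seen, had more FLAG peaks at 10 and fewer at 0, and more BRG1 peaks at 8 and fewer at 0, with totals of 38 and 54 for FLAG and 28 and 42 for BRG1 and a median difference of 1 for each, where all genes had a median of 0 and the shares just given. *Perp*, a p53 target of the cell death programme, had 0 FLAG peaks in NanogWT and 2 in NanogBiD, and was picked out after its values were seen. FLAG was found in NanogBiD only at this 1 of the 52 genes and at 847 of all 21911 protein-coding genes. For the 7 senescence-associated genes FLAG peaks were more numerous at 1 and fewer at 3, with totals of 29 and 28. Their BRG1 peaks were more numerous at 4 and fewer at 2, with totals of 17 and 24. In the other lists FLAG peaks were more numerous at 2 of 4 CDK inhibitors, 5 of 8 cyclins and kinases, 4 of 7 RB and E2F genes, 5 of 7 p53 regulators and 3 of 7 regulators of the Ink4 locus. The senescence-associated genes, with the lowest mean H3K4me1 difference of the 7 lists (-2.43), had fewer H3K4me1 peaks at 6 and more at 0. Their totals were 35 and 18 and their median difference -1, where 51.6% of all genes with an H3K4me1 peak had fewer and 19.7% more. *Hmga2* had 13 and 6 and *Igfbp3* 5 and 0. More and fewer numbered 4 and 3 for p53 targets, 2 and 1 for p53 regulators and for CDK inhibitors. They were 2 and 4 for cyclins and kinases, 1 and 4 for RB and E2F genes, and 0 and 4 for regulators of the Ink4 locus. Of the 52, BRG1 was found in 1 arm only at *Igfbp3* (18 tags, NanogWT), *Igfbp5* (17 tags, NanogBiD) and *Mmp3* (10 tags, NanogWT), where 8.09% of all protein-coding genes had it in 1 arm only. The 4 other CDK inhibitors had 10 BRG1 peaks in each arm.

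The gene most like each of the 9 was found from the highest summit in the window, as the mean absolute difference of log2(height + 1) over the 8 lists, among 60 other genes. *Cdkn2a* and *Cdkn2b* were nearest to each other (0.038) and share peaks, and the next for *Cdkn2a* was *E2f1* (0.17). *Cdkn1b* was nearest to *E2f3* (0.13), *Cdkn1a* to *Bax* (0.16), *Ccnd2* to *Sesn2* (0.16), *Mdm2* to *Hmga2* (0.18), *Ccnd1* to *E2f1* (0.18), *Ccne1* to *Gadd45a* (0.22) and *Trp53* to *Ppm1d* (0.23). The median difference over all 60 genes was 0.36 to 0.47.

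As a check of the cells, H3K27ac peaks were found at the starts of 8 (NanogWT) and 9 (NanogBiD) of 10 fibroblast markers, 1 and 2 of 6 pluripotency markers, 0 and 1 of 5 epithelial, 2 and 3 of 3 blood, 0 and 2 of 3 endothelial, and 1 and 0 of 3 muscle markers. H3K4me1 peaks were found at the starts of 10 and 6 of the fibroblast markers, 3 and 3 of the pluripotency, 4 and 4 of the epithelial, 1 and 2 of the blood, 1 and 2 of the endothelial and 3 and 2 of the muscle markers. FLAG peaks were found at 8 and 8 of the fibroblast markers and BRG1 peaks at 7 and 8. The part of other cells in the values above was not tested.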

How the data were processed

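The authors trimmed reads with Trim Galore 0.6.4, aligned them to mm10 with Bowtie2 2.4.5, filtered out reads that were repetitive, of low mapping quality or mitochondrial with SAMtools 1.16.1, merged replicates (a minimum is stated for all experiments, and no number for CUT&Tag) and called peaks with MACS 1.4.2 without a named control. In the deposited peak lists the score is the caller's significance score, 50 or more in every list. The summit lists that were deposited hold a signal, the number of tags piled up there, which is whole, not scaled to depth and called the height. Depth is unknown.

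Peaks and summits were joined by name with Python 3.11.15 and pandas 2.3.3, and positions are 1-based. Windows were GENCODE vM21 gene bodies with 20 kb on either side. A peak belonged to a window if it overlapped it by 1 bp, and peaks that overlapped or touched formed 1 region, with the highest summit of each arm. Promoters were 2 kb either side of any annotated start. Intervals (95%, Wilson for shares, exact binomial for ratios, SciPy 1.17.1) cover counting error only. A count of 0 was given the limit of 3 counts of the total. Named regions were those within 2 kb of a start, those with FLAG and BRG1 in 1 arm only, and the largest rise and fall per target among shared regions. A largest rise or fall was picked as an extreme, so a small share of all regions with one as large is no test. Other regions were described after their values were seen. The 9 genes, the pathway lists and the rules were chosen with earlier results of these data known. Region merging was tested on simulated data, where 0 of 4000 sites were misclassed.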

Additional observations from a re-analysis of the deposited data

How the results depend on the processing

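Alternatives were windows of 10 kb or 50 kb, the summit itself in the window, a minimum score of 100, each list cut to its 20000 highest-scoring peaks, a minimum height of 15 tags, merging across 500 bp, summit windows (100 bp to each side), and heights divided by the list's median at shared regions. No paired analysis was possible because a single merged library stood for each group. All 24 ratios of peak number stayed within their main intervals, which include 1, and 5 crossed 1: BRG1 (0.75), H3K27ac (0.875) and H3K4me1 (1.4) with the 20000 highest-scoring peaks, and H3K27ac (0.941) and H3K4me1 (1.08) with scores of at least 100. The cut to 20000 peaks sets the whole-list ratio near 1 for every target. The NanogBiD-only share left its main interval for BRG1 with the 20000 highest-scoring peaks (5.88%), for H3K27ac with summit windows (31.6%), and for H3K4me1 with the 20000 highest-scoring peaks (41.2%) and with summit windows (31.9%). The other 28 values stayed within theirs. The share of shared regions higher in NanogBiD left its interval for H3K4me1 with scores of at least 100 (11.1%) and with divided heights (76.2%), and for H3K27ac with divided heights (36%), and 33 values did not, among them BRG1 with divided heights (36.4%), whose direction turned. An alternative chosen after seeing the data, merging all 8 lists across 500 bp, left 2 of the 3 regions where FLAG and BRG1 were both confined to NanogBiD and the 1 confined to NanogWT.

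Counts per gene were less stable. Members with more FLAG peaks in NanogBiD numbered 2, and those with fewer 3, with the 20000 highest-scoring peaks, which turned the balance, and those with fewer were 0 with 10 kb, 50 kb and scores of at least 100, and 1 with heights of at least 15 tags. For BRG1, more was 6 with 50 kb and 0 (against 3 fewer) with the 20000 highest-scoring peaks, and fewer was 0 with 10 kb, scores of at least 100 and heights of at least 15 tags. For H3K27ac, more was 5 with 50 kb and 1 with scores of at least 100 and with the 20000 highest-scoring peaks, and fewer was 2, 3 and 1 with scores of at least 100, the 20000 highest-scoring peaks and heights of at least 15 tags. For H3K4me1, fewer was 2 with scores of at least 100 and 0 (against 3 more) with the 20000 highest-scoring peaks. Of 216 single differences in peak number (NanogBiD minus NanogWT), 140 kept their direction, 65 went to or from 0, and 11 changed sign. With the 20000 highest-scoring peaks these were *Cdkn1b* FLAG (-1), *Ccnd2* BRG1 (-2), *Mdm2* H3K27ac (-1), *Mdm2* H3K4me1 (1) and *Cdkn2a* H3K4me1 (3, also with scores of at least 100 and heights of at least 15 tags). With 50 kb they were *Mdm2* FLAG (2), *Ccne1* FLAG (1) and *Ccne1* BRG1 (2, and 1 with heights of at least 15 tags). The cause was not tested. Among genes with at least 1 peak in either arm, 50.2% had more FLAG peaks and 17.7% fewer, 53.2% and 12.7% for BRG1, 37.3% and 17.4% for H3K27ac, and 19.7% and 51.6% for H3K4me1. Heights were small whole numbers, and the smallest ratio above 1 whose counting interval left out 1 was 1.78 in the windows.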
